A study of Mus musculus with 8 samples.

Results

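The genes described here are 10 members of the bone morphogenetic protein (BMP) pathway in cultured cardiac fibroblasts of the mouse, which make the collagen matrix of heart muscle. They are the ligands Bmp2, Bmp4 and Bmp6, the receptors Bmpr1a and Bmpr2, the inhibitory Smad6, the target genes Id1, Id2 and Id3, and the secreted antagonist Grem1. Each was found by its symbol through the Ensembl identifier of its row, and all 10 were present among the 54532 genes of the deposited table. RNA sequencing was run on 8 libraries in 4 groups of 2, all collected on day 7. Cells overexpressed EphrinB2 (gene Efnb2), a ligand anchored in the cell membrane that Eph receptors bind, and were kept in osteogenic differentiation medium or in complete medium. Cells with the vector alone were kept in the same media. All 4 groups share the cell type, and the vector groups are the controls for EphrinB2 in each medium. The promoter and delivery of the EphrinB2 construct, the components of either medium, and the animals or passages behind the cells are not stated in the labels. Whether the partners of a group are separate cultures is likewise not stated, and the p-values rest on differences between partner libraries that could be purely technical.

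BMP ligands are secreted dimers of the TGF-beta superfamily. They bring type I receptors such as Bmpr1a together with type II receptors such as Bmpr2, and the activated type I kinase phosphorylates Smad1, Smad5 and Smad9, which enter the nucleus with Smad4. Smad6 and the Id genes are direct targets, and Smad6 protein feeds back to inhibit the receptors. The pathway is best known for driving mesenchymal cells towards bone and cartilage, and in the heart it acts in valve formation.

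Of the 8 members for which RefSeq gives a promoter window (assembly GRCm38.p6), the windows of Bmp4 and Smad6 are shown, because these were the members whose level passed the test between media in both averaged and vector-only comparisons. Each is the 250 bases before the annotated start, 5′ to 3′ on the gene's strand. That of Bmp4 lies at chr14:46390670-46390919 (minus strand) and that of Smad6 at chr9:64022060-64022309 (minus strand). Capitals mark a match to 1 of 3 motifs searched on both strands. These were GGCGCC (a GC-rich site of Smad1 and Smad5), TGTTCT (only part of a glucocorticoid response element) and CACGTG (a form of the E-box).
Bmp4: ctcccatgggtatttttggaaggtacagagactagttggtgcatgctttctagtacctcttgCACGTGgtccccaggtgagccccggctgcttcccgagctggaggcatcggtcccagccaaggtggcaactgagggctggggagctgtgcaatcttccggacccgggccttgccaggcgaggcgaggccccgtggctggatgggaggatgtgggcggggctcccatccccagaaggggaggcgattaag
Smad6: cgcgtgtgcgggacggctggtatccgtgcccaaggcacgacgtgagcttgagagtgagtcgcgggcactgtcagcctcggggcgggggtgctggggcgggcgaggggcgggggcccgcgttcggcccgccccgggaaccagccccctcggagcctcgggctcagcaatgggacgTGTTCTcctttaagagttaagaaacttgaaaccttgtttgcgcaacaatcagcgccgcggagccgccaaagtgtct
The Bmp4 window holds CACGTG 188 bases before the start, a motif found in 6.02% of all 32851 windows of this length. In the Smad6 window TGTTCT stands 76 bases before the start, and 16.1% of all windows hold it. Neither holds GGCGCC, which was present in 4 of the 8 windows, those of Bmpr1a, Bmpr2, Id2 and Grem1, against 9.59% of all windows. All 8 windows were rich in G and C, at 62.8% to 78.8% beside a median of 52.4% over all windows. Matches describe these letters only. Bmp2 and Id1 were not among the windows.

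Levels are given as FPKM, fragments per kilobase of exon scaled to the counted fragments of a library, as deposited by the authors. Depth, estimated from the steps between low values, was 16493963 to 20550770 counted reads per library, and 11717 to 12125 genes reached 1 FPKM. All FPKM values summed to 360626 in EphrinB2 osteogenic replicate 1, against 253613 to 269809 in the other libraries. The overexpressed gene Efnb2 stood at 5.02 and 18.3 FPKM in EphrinB2 osteogenic libraries and 31.3 and 32.8 FPKM in EphrinB2 complete libraries. It stood at 1.39 and 1.27 FPKM in vector osteogenic and 6.30 and 5.56 FPKM in vector complete libraries, so the EphrinB2 libraries were higher than the vector libraries within each medium, by 2.21 in osteogenic and 2.26 in complete medium on the log2 scale (limma, adjusted p = 0.567 and 1). The SD over genes of the log2 difference between partners was 0.66 in EphrinB2 osteogenic and 0.52 in EphrinB2 complete libraries, against 0.23 in vector osteogenic and 0.26 in vector complete libraries. EphrinB2 osteogenic replicate 1 and EphrinB2 complete replicate 2 stood apart. Their log2 values departed from the vector mean of their medium with an SD of 0.69 and 0.42 over 12994 genes, against 0.23 and 0.26 for their partners. Below, results that rest on them are also given without both. They lay farther from vector libraries than their partners did. Estimates between EphrinB2 and vector cells without both, and interactions, are therefore no independent check. Fibroblast markers such as Pdgfra, Tcf21 and Dcn were present in all libraries, and so were macrophage markers. In osteogenic medium 12 of these summed to 4123 to 8335 FPKM, most of it from Lyz2, and the other 11 to 1144 to 2274 FPKM, against 2272 to 2343 FPKM for 9 fibroblast markers.

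The partner difference moved with gene length. Across 12990 genes, which are not independent replicates, Spearman's rho between merged exon length and the log2 ratio of replicate 1 to replicate 2 (in FPKM + 1) was -0.51 in EphrinB2 osteogenic and -0.44 in EphrinB2 complete libraries. In vector libraries it was 0.018 and -0.037. The 10 members span this range, with merged exons of 1160 bases in Id1, 1791 in Id3 and 2438 in Id2 at the short end and 6351 in Bmpr1a and 17983 in Bmpr2 at the long end. The log2 ratio of replicate 1 to replicate 2 was 1.08 for Id1, 1.09 for Id3 and 0.50 for Id2 in EphrinB2 osteogenic libraries, but -0.79 for Bmpr1a and -0.78 for Bmpr2. In EphrinB2 complete libraries it was 1.37, 1.32 and 0.99 for Id1, Id3 and Id2, and -0.46 and -0.74 for Bmpr1a and Bmpr2. Over all genes the 3248 with the shortest exons (up to 2164 bases) had medians of 0.54 in EphrinB2 osteogenic and 0.29 in EphrinB2 complete libraries, and the 3247 with the longest (from 6384 bases) -0.43 and -0.29. Bmp4 and Smad6, at 2248 and 3205 bases, had partner ratios between 0.03 and 0.15 in EphrinB2 libraries, though Bmp4 is shorter than Id2. Bmp6, at 3900 bases, had -0.67 in EphrinB2 osteogenic and -0.19 in EphrinB2 complete libraries. Those of Bmp2, at 3555 bases, were -0.28 and -0.23. Length thus did not fully order the members.

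**Figure D1:**
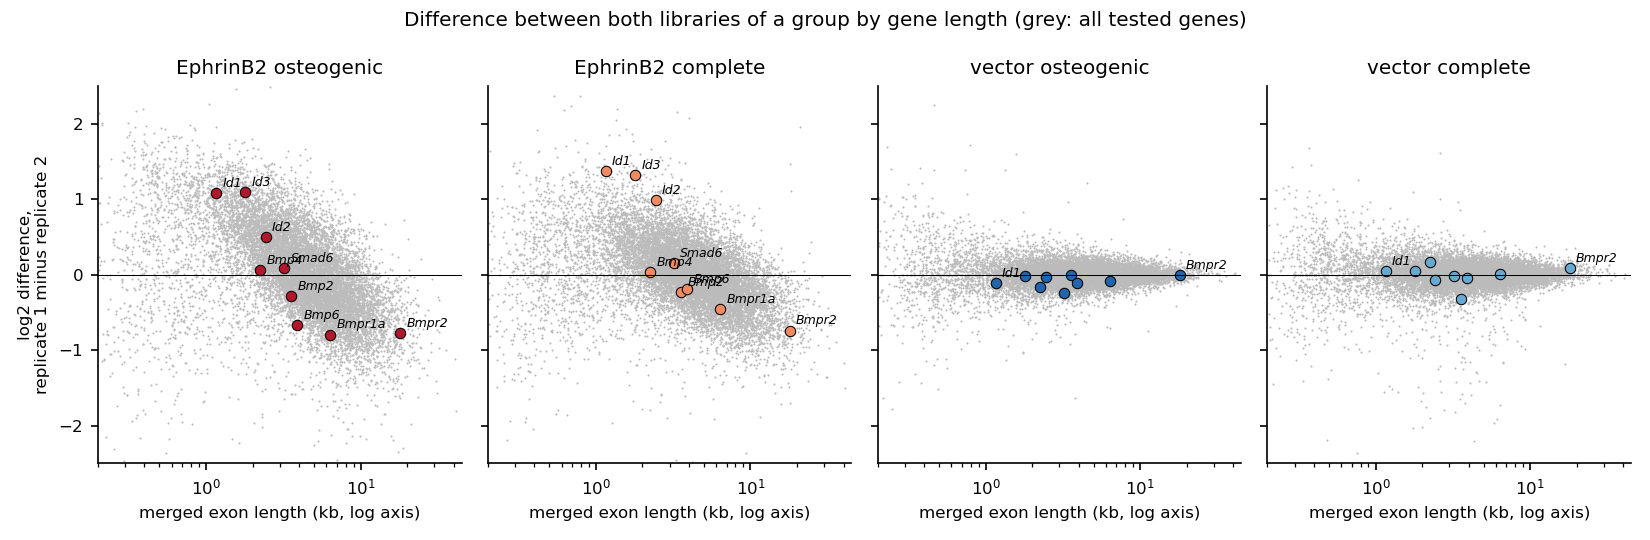
Log2 ratio of replicate 1 to replicate 2 (vertical axis) against merged exon length in kb (log axis) for each group, with all tested genes in grey and the 9 tested BMP genes as coloured circles; values beyond 2.5 in size or shorter than 0.2 kb are not drawn. Short Id genes lie above 0 and long receptor genes below 0 in both EphrinB2 groups, while all 9 lie between -0.32 and 0.16 in vector libraries.

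Among the 10 genes Id3 had the highest mean level per length in every group and Grem1 the lowest. EphrinB2 osteogenic libraries had Id3 at a mean of 428 FPKM, Id1 at 90.6 and Smad6 at 85.1, of which Id1 and Smad6 overlapped. In EphrinB2 complete libraries Id3 (210 FPKM) overlapped with Smad6 (130 FPKM), and Bmp6, Id1, Id2 and Bmpr1a overlapped each with the next. In vector complete libraries the order of group means ran from Id3 (259 FPKM) through Smad6 (136), Bmp4 (61.8), Id1 (58.3), Bmp6 (55.3), Id2 (37.0), Bmpr1a (27.0), Bmpr2 (15.9) and Bmp2 (0.935) to Grem1 (0.0902). Of these neighbours only Bmp4 and Id1 overlapped in their libraries. In vector osteogenic libraries Bmp4 stood at the sixth place of 10 (25.8 FPKM), where it overlapped with Bmpr1a (24.1 FPKM).

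**Figure D2:**
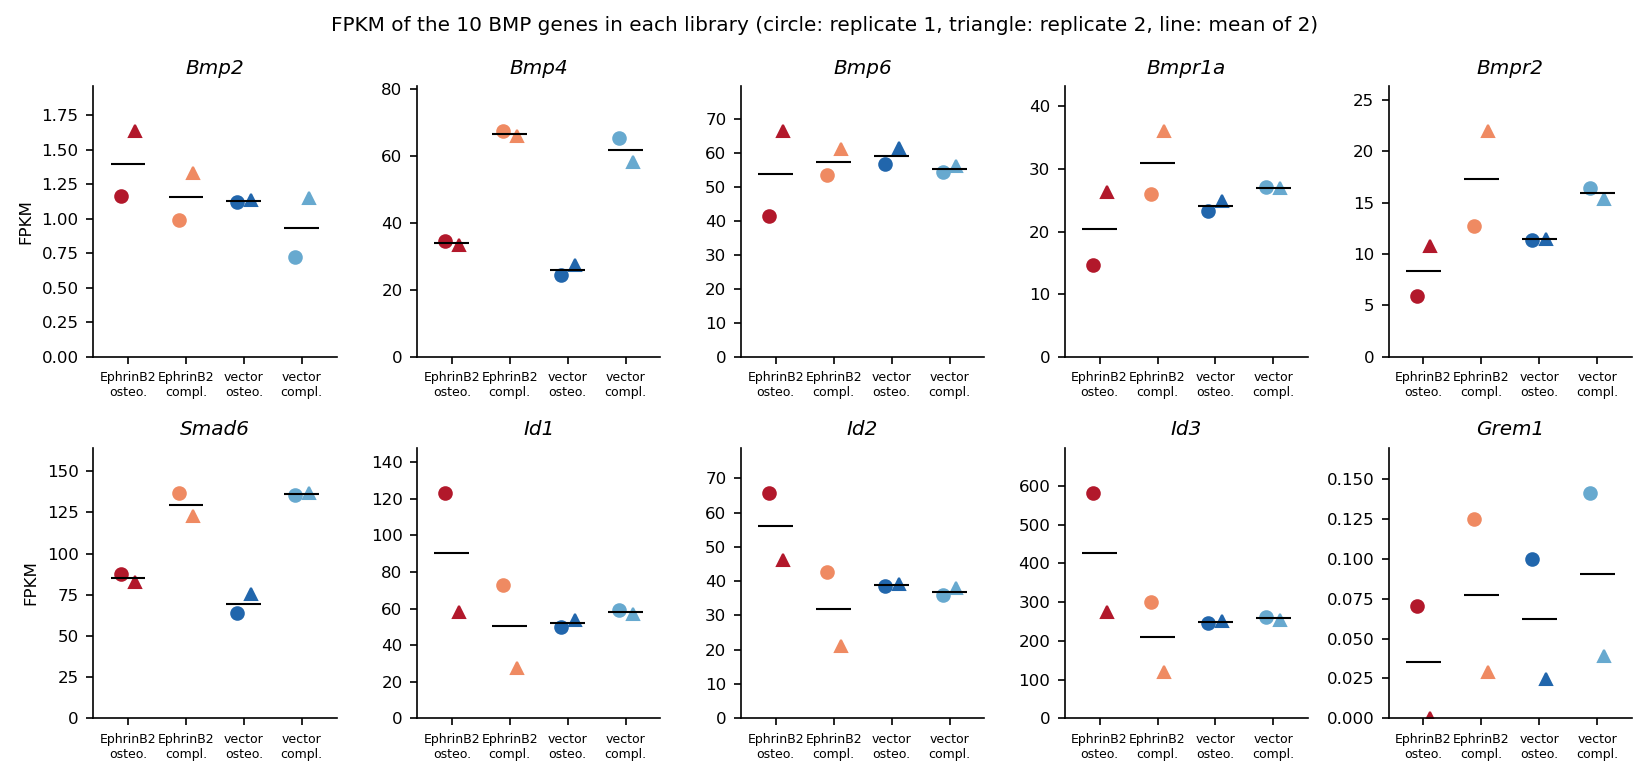
FPKM (vertical axes, linear from 0, a separate scale for each gene) of the 10 BMP genes in each library, with circles for replicate 1, triangles for replicate 2 and lines for the mean of both. Bmp4 and Smad6 are lower in every osteogenic library than in any complete library, as are 16.8% of all genes. Id1, Id2 and Id3 are spread widely between both EphrinB2 partners.

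Differences were tested as log2(FPKM + 1) in limma over all 12994 genes with at least 1 FPKM in at least 2 libraries, with 1 spread for all groups. Genes are said to rise or fall where the Benjamini-Hochberg adjusted p over all these genes was under 0.05. Of the 10 members, 9 passed the filter on low values and Grem1 did not. Averaged over both cell kinds, 2 of the 9 passed between media, both lower in osteogenic medium, where 9.44% of all genes were called lower and 19.8% in either direction. In EphrinB2 cells 1 of 9 passed (11.8% of all genes, 5.44% lower) and in vector cells 2 of 9 (7.52%, 3.11% lower). The averaged share is close to that of all genes. The median log2 difference between media, averaged over both cell kinds, was -0.01 for the 9 members and 0.01 for all genes. Because EphrinB2 partners differed more than vector partners, the shared spread can make p-values in EphrinB2 cells too small and those in vector cells too large. Results of a fit on the libraries of 1 cell kind are therefore given beside them. With the EphrinB2 libraries alone 0 of 9 members passed in limma (1.18% of all genes, 0.323% lower and 0.854% higher), and with the vector libraries alone 3 of 9 (40.6%). Without both libraries that stood apart 4 of 9 passed in EphrinB2 cells (29.7% of all genes), of which Bmp4, Smad6 and Id1 were lower (15.7%), and 5 of 9 in the average (48.2%), of which 4 were lower (25.7%). Counting libraries that do not overlap between media, EphrinB2 cells had 1 member higher (24.3% of all genes) and 3 lower (23.6%), and vector cells 2 higher (34.4%) and 6 lower (38.8%).

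**Figure D3:**
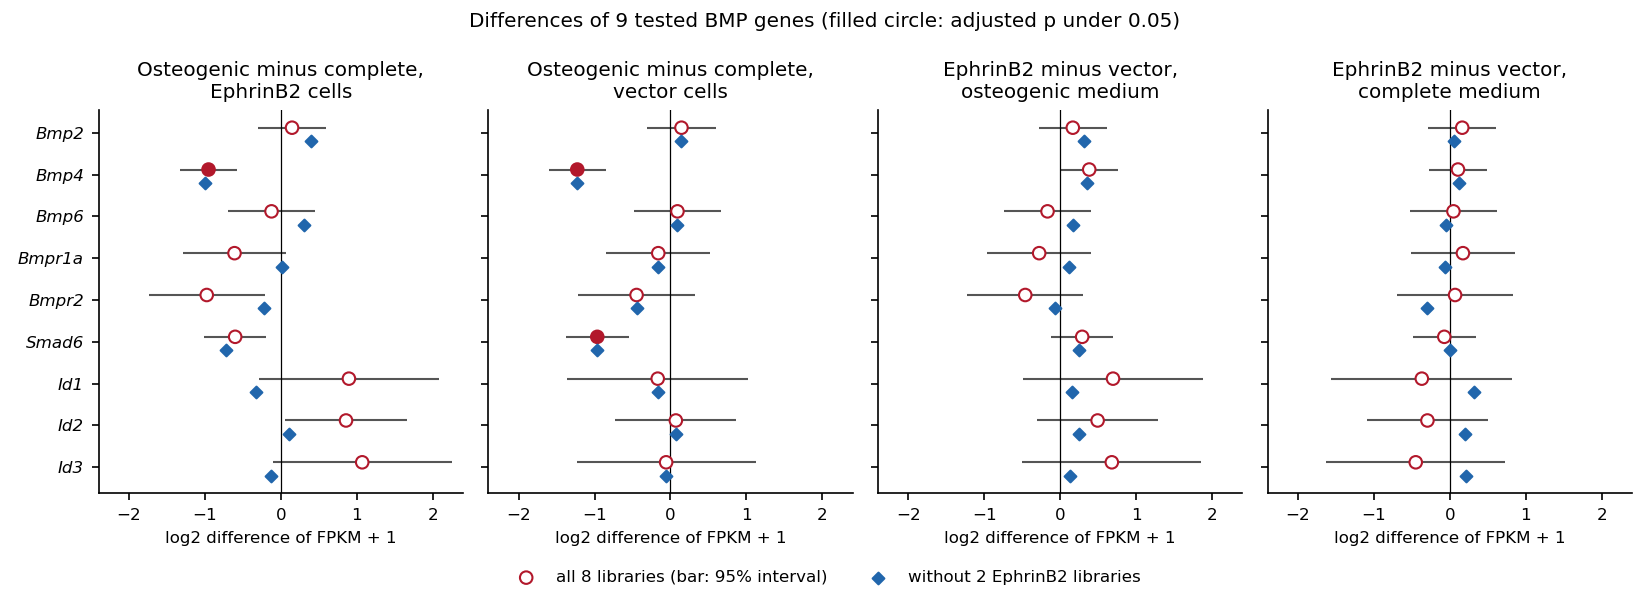
Log2 difference of FPKM + 1 (horizontal axes) of 9 BMP genes between media in each cell kind and between EphrinB2 and vector cells in each medium. Circles are the estimates from all 8 libraries with 95% intervals, filled where the adjusted p was under 0.05, and diamonds are estimates without EphrinB2 osteogenic replicate 1 and EphrinB2 complete replicate 2; between media in EphrinB2 cells Bmp4 is at -0.95 and -0.997 and Id1 at 0.90 and -0.33.

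Among the ligands Bmp4 fell in osteogenic medium in both cell kinds. Bmp4 (ENSMUSG00000021835; GRCm38 chromosome 14, 46383520 to 46390669, minus strand) is a secreted ligand that binds Bmpr1a and Bmpr2. It stood at 34.7 and 33.3 FPKM in EphrinB2 osteogenic libraries, against 67.4 and 65.8 FPKM in EphrinB2 complete libraries. In vector cells it stood at 24.3 and 27.4 FPKM in osteogenic libraries, against 65.4 and 58.3 FPKM in complete libraries. All 4 osteogenic libraries lay below all 4 complete libraries, as they did for 16.8% of all genes. The log2 difference averaged over both cell kinds was -1.09 (SE 0.11; limma, adjusted p = 0.00104), a level 0.470 times that in complete medium. Leaving out any 1 library gave -1.13 to -1.05 for Bmp4, with adjusted p from 0.00133 to 0.0136 in limma. In EphrinB2 cells Bmp4 differed by -0.95 (SE 0.16; limma, adjusted p = 0.0127), but the adjusted p was 0.220 with the EphrinB2 libraries alone. It was also 0.0521 to 0.0524 in limma without vector osteogenic replicate 2 or 1, and 0.0507 without EphrinB2 complete replicate 2. Without both libraries that stood apart the Bmp4 difference in EphrinB2 cells was -0.997 (limma, adjusted p = 0.00770). In vector cells the Bmp4 difference was -1.23 (SE 0.16; limma, adjusted p = 0.00612), and its limma adjusted p was 0.00116 with the vector libraries alone. Without any 1 of the 4 vector libraries its limma adjusted p was 0.0746 to 0.104. In bulk RNA, fewer cells that express a gene and less of its RNA per cell cannot be told apart. Every osteogenic library also had a higher macrophage marker sum than every complete library, with or without Lyz2. The fibroblast marker sum was lower. Without the collagens Col1a1, Col1a2 and Col3a1 the other 6 summed higher, at 988 to 1259 FPKM in osteogenic and 430 to 627 FPKM in complete libraries. Most of this difference came from Dcn, at 612 to 801 FPKM in osteogenic and 118 to 232 FPKM in complete libraries. The rest were mixed. In vector cells Pdgfra was higher in osteogenic medium (71.2 and 72.5 against 46.0 and 49.3 FPKM) and Tcf21 lower (140 and 142 against 197 and 195 FPKM). The part of these markers in the Bmp4 and Smad6 falls was not tested.

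Bmp6, a ligand best known for control of iron balance in the liver, was abundant in every group. It stood at 41.4 and 66.5 FPKM in EphrinB2 osteogenic libraries and 53.4 and 61.3 FPKM in EphrinB2 complete libraries. In vector cells it stood at 56.7 and 61.4 FPKM in osteogenic and 54.5 and 56.1 FPKM in complete libraries. The EphrinB2 osteogenic partners enclosed all other libraries. Averaged over both cell kinds Bmp6 differed between media by -0.01 (95% interval -0.42 to 0.39; limma, adjusted p = 0.960). Without both libraries that stood apart the Bmp6 difference was 0.20 (limma, adjusted p = 0.0270), and 0.31 in EphrinB2 cells (limma, adjusted p = 0.0469). In that fit EphrinB2 groups hold 1 library each, and its spread is taken to be that of vector partners. Its exons (ENSMUSG00000039004, chromosome 13, 38345107 to 38500302, plus strand) overlap those of Txndc5 on the other strand, which reached 130 FPKM, and the strand setting of the counting is not stated. Bmp4 and Bmpr1a have such partners too, Gm15217 and Gm17110. Of the 2 genes that overlap Bmp4 on the other strand the higher reached 3.52 FPKM, and Gm17110 reached 1.52 FPKM.

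Bmp2 (ENSMUSG00000027358; chromosome 2, 133552159 to 133562885, plus strand), a strong inducer of bone formation, was near the filter limit, with 48 to 112 estimated reads per library. It stood at 1.163 and 1.634 FPKM in EphrinB2 osteogenic and 0.991 and 1.33 FPKM in EphrinB2 complete libraries. In vector cells it stood at 1.12 and 1.13 FPKM in osteogenic and 0.720 and 1.149 FPKM in complete libraries. The media overlapped in both cell kinds. The averaged Bmp2 difference was 0.15 (95% interval -0.17 to 0.47; limma, adjusted p = 0.485).

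Of the receptors, Bmpr2 was lower in every osteogenic library, as were 16.8% of all genes, without passing the test. Bmpr1a overlapped between media in EphrinB2 cells, and in vector cells both osteogenic libraries lay below both complete libraries, as for 38.8% of all genes. Bmpr2 (ENSMUSG00000067336; chromosome 1, 59763400 to 59879014, plus strand) is the type II receptor kinase that starts the signal. It stood at 5.90 and 10.8 FPKM in EphrinB2 osteogenic libraries, against 12.7 and 21.97 FPKM in EphrinB2 complete libraries. In vector cells Bmpr2 stood at 11.4 and 11.5 FPKM in osteogenic libraries, against 16.5 and 15.4 FPKM in complete libraries. The averaged difference was -0.71 (SE 0.23; limma, adjusted p = 0.0739). It passed with array weights (limma, adjusted p = 0.0410), without EphrinB2 complete replicate 1 at -0.90 (0.0392) or without EphrinB2 osteogenic replicate 2 at -0.91 (0.0184). The averaged Bmpr2 difference was -0.33 without both libraries that stood apart (limma, adjusted p = 0.00558). In EphrinB2 cells the Bmpr2 difference was -0.98 (limma, adjusted p = 0.101), and -0.22 without both libraries that stood apart (limma, adjusted p = 0.0981). Leaving out 1 library gave -1.36 to -0.59 for Bmpr2 there, which passed without EphrinB2 osteogenic replicate 2 (limma, adjusted p = 0.0207). In vector cells the Bmpr2 difference was -0.45, with a limma adjusted p of 0.567 in the fit of all libraries and 0.00448 in the fit of the vector libraries alone.

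Bmpr1a (ENSMUSG00000021796; chromosome 14, 34410734 to 34503341, minus strand), a type I receptor kinase for Bmp2 and Bmp4, stood at 14.7 and 26.3 FPKM in EphrinB2 osteogenic and 25.9 and 36.0 FPKM in EphrinB2 complete libraries. In vector cells it stood at 23.3 and 24.8 FPKM in osteogenic and 27.1 and 27.0 FPKM in complete libraries. EphrinB2 osteogenic replicate 1 was the lowest of the 8 libraries and EphrinB2 complete replicate 2 the highest. The averaged difference was -0.38 (SE 0.20; limma, adjusted p = 0.236). Without EphrinB2 osteogenic replicate 2 it was -0.58 for Bmpr1a (limma, adjusted p = 0.0227), and without both libraries that stood apart it was -0.07 (limma, adjusted p = 0.233). In EphrinB2 cells Bmpr1a differed by -0.61 (SE 0.29; limma, adjusted p = 0.198), with -1.01 to -0.21 when 1 library was left out. It passed there without EphrinB2 osteogenic replicate 2 (limma, adjusted p = 0.0182). In vector cells Bmpr1a differed by -0.16 (limma, adjusted p = 0.877).

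Smad6 fell with Bmp4. Smad6 (ENSMUSG00000036867; chromosome 9, 63953076 to 64022059, minus strand) encodes the inhibitory Smad that BMP signals induce and that restrains the receptors. It stood at 87.6 and 82.6 FPKM in EphrinB2 osteogenic libraries, against 137 and 123 FPKM in EphrinB2 complete libraries. In vector cells Smad6 stood at 63.6 and 75.6 FPKM in osteogenic libraries, against 135 and 137 FPKM in complete libraries. No osteogenic library reached the lowest complete library, as for 16.8% of all genes. Averaged over both cell kinds the difference was -0.78 (SE 0.12; limma, adjusted p = 0.00584), or 0.581 times the level in complete medium. Without vector osteogenic replicate 1 its averaged limma adjusted p was 0.0515. In EphrinB2 cells Smad6 differed by -0.60 (SE 0.17; limma, adjusted p = 0.0721). That value passed without both libraries that stood apart, at -0.72 (limma, adjusted p = 0.0191), and without EphrinB2 osteogenic replicate 2, at -0.56 (0.0385). In vector cells Smad6 differed by -0.96 (SE 0.17; limma, adjusted p = 0.0205), and the adjusted p was 0.00238 with the vector libraries alone. It was 0.143 to 0.244 in limma without any 1 of the 4 vector libraries.

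None of the 3 Id genes passed between media in the fit of all libraries. Their proteins are helix-loop-helix factors that lack a DNA-binding region and bind other factors of that class. Id1 (ENSMUSG00000042745; chromosome 2, 152736251 to 152737410, plus strand) stood at 123 and 57.9 FPKM in EphrinB2 osteogenic and 72.9 and 27.5 FPKM in EphrinB2 complete libraries. In vector cells Id1 stood at 49.8 and 53.8 FPKM in osteogenic and 59.3 and 57.3 FPKM in complete libraries. The EphrinB2 media overlapped, and in vector cells both osteogenic libraries lay below both complete libraries, as for 38.8% of all genes.

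Id3 (ENSMUSG00000007872; chromosome 4, 136143497 to 136145755, plus strand) stood at 583 and 273 FPKM in EphrinB2 osteogenic and 300 and 119 FPKM in EphrinB2 complete libraries. In vector cells Id3 stood at 247 and 250 FPKM in osteogenic and 263 and 255 FPKM in complete libraries. Id2 (ENSMUSG00000020644; chromosome 12, 25093799 to 25097140, minus strand) stood at 65.8 and 46.2 FPKM in EphrinB2 osteogenic and 42.6 and 20.96 FPKM in EphrinB2 complete libraries. It stood at 38.5 and 39.3 FPKM in vector osteogenic and 36.1 and 37.9 FPKM in vector complete libraries. For all 3 Id genes the highest library was EphrinB2 osteogenic replicate 1 and the lowest EphrinB2 complete replicate 2. Only Id2 did not overlap between EphrinB2 media, where 24.3% of all genes were likewise higher in osteogenic medium without overlap. Within each EphrinB2 pair the library with more Id1, Id2 and Id3 (replicate 1) also had more of 7 macrophage markers with merged exons of 667 to 2589 bases, among them Lyz2 and C1qa. It had less of 4 with exons of 3238 to 18313 bases, Csf1r, Adgre1, Mrc1 and Ptprc, though Csf1r was nearly level in the osteogenic pair (51.0 and 51.4 FPKM). The last marker, Cd68 (1257 bases), was mixed, at 98.1 and 71.6 FPKM in EphrinB2 osteogenic and 26.9 and 27.5 FPKM in EphrinB2 complete libraries. The part of gene length or of those cells in the Id difference was not tested.

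Between media, Id1, Id2 and Id3 differed in EphrinB2 cells by 0.90 (SE 0.50), 0.86 (SE 0.33) and 1.07 (SE 0.49), with limma adjusted p-values of 0.257, 0.143 and 0.193. Without EphrinB2 complete replicate 1 the Id2 difference there was 1.35 (limma, adjusted p = 0.0312), and without EphrinB2 osteogenic replicate 2 that of Id3 was 1.62 (limma, adjusted p = 0.0489). Without both libraries that stood apart the values for Id1, Id2 and Id3 were -0.33, 0.11 and -0.13, of which that of Id1 passed (limma, adjusted p = 0.0409). In vector cells the differences were -0.17 for Id1, 0.07 for Id2 and -0.06 for Id3, none past the threshold (limma, adjusted p = 0.938, 0.960 and 0.978). The vector libraries alone gave 95% intervals of -0.32 to -0.02 for Id1, -0.05 to 0.19 for Id2 and -0.17 to 0.06 for Id3, with limma adjusted p-values of 0.0734, 0.286 and 0.339. Averaged over both cell kinds the Id1, Id2 and Id3 differences were 0.36, 0.47 and 0.51 (limma, adjusted p = 0.511, 0.223 and 0.361). That of Id2 was 0.71 without EphrinB2 complete replicate 1 (limma, adjusted p = 0.0342). The averaged Id1 difference was -0.25 without both libraries that stood apart (limma, adjusted p = 0.0150).

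Grem1 (ENSMUSG00000074934; chromosome 2, 113746164 to 113758646, minus strand), a secreted antagonist that binds Bmp2 and Bmp4, was barely detected. It had 0 to 11 estimated reads in a library and at most 0.141 FPKM, in vector complete replicate 1. The 8 values were 0.0704 and 0 FPKM in EphrinB2 osteogenic, 0.125 and 0.0292 in EphrinB2 complete, 0.0996 and 0.0249 in vector osteogenic, and 0.141 and 0.0389 in vector complete libraries. All groups overlapped, and no difference was detectable at this depth.

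EphrinB2 against vector cells asks whether overexpression of the ligand altered these genes within a medium. In osteogenic medium 0 of 9 members passed in limma (0% of all genes) and in complete medium 0 of 9 (0.00770%; 0.0154% without both libraries that stood apart). At an unadjusted p under 0.05, 1 of 9 members, Bmp4, was counted in osteogenic medium and 0 in complete medium, where 441 and 167 of the 12994 genes were. Bmp4 was higher in both EphrinB2 osteogenic libraries (34.7 and 33.3 FPKM) than in either vector osteogenic library (24.3 and 27.4 FPKM). Its log2 difference was 0.38 (95% interval 0.01 to 0.76; limma, adjusted p = 0.567), and 0.35 without both libraries that stood apart. Smad6 was also higher there, with 87.6 and 82.6 FPKM in EphrinB2 and 63.6 and 75.6 FPKM in vector osteogenic libraries, by 0.29 (95% interval -0.12 to 0.70; limma, adjusted p = 0.567). Counting these, 6 of the 9 members, Bmp2, Bmp4, Smad6, Id1, Id2 and Id3, had both EphrinB2 osteogenic libraries above both vector osteogenic libraries, as had 25.6% of all genes, and Bmpr2 had both below, as had 22.3%. The 3 Id genes differed there by 0.49 to 0.70, and by 0.14 to 0.24 without both libraries that stood apart. That smaller range is no independent check, as the libraries left out were those farther from vector cells.

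In complete medium the differences between EphrinB2 and vector cells ran from -0.45 for Id3 (95% interval -1.63 to 0.73) to 0.17 for Bmpr1a (95% interval -0.51 to 0.86), and the limma adjusted p was 1 for all 9 members. Bmp4 there had a narrower interval, -0.27 to 0.48 around 0.11. Only Bmp4 of the 9 had libraries that did not overlap, at 67.4 and 65.8 FPKM in EphrinB2 and 65.4 and 58.3 FPKM in vector complete libraries, where 14.3% of all genes were higher without overlap and 25.8% apart in either direction. Whether the medium acted differently in EphrinB2 cells was tested as an interaction, which 0 of 9 members and 0 of 12994 genes passed in limma, with 0 members and 214 genes at an unadjusted p under 0.05. Interaction estimates were 0.28 for Bmp4 (SE 0.22), 0.36 for Smad6 (SE 0.24), 1.07 for Id1 (SE 0.71), 0.79 for Id2 (SE 0.47) and 1.13 for Id3 (SE 0.70). The lowest adjusted p of the 9 members was 0.746 (limma). Without both libraries that stood apart these estimates were 0.23 for Bmp4, 0.25 for Smad6, -0.16 for Id1, 0.04 for Id2 and -0.08 for Id3. Intervals of this width do not show that EphrinB2 leaves the genes alike.

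The rest of the pathway was described through 64 other genes in 5 lists, of which 40 passed the filter. Averaged over both cell kinds 6 of 40 rose in osteogenic medium and 14 fell, beside 10.3% and 9.44% of all genes, and their median log2 difference was -0.31 against 0.01 for all genes. Of these calls, Chrdl1, Bambi and Tll1 reached 1 FPKM only in osteogenic libraries, and Nog only in complete libraries. Hey1 reached it in complete libraries and, of the osteogenic ones, only in EphrinB2 osteogenic replicate 2. These genes passed the filter only through the medium where they were higher, so their calls are no independent support for a difference. In EphrinB2 cells 3 of the 40 rose and 8 fell (6.36% and 5.44% of all genes), and with the EphrinB2 libraries alone 0 of 40 passed in limma (1.18% of all genes). In vector cells 3 rose and 6 fell (4.41% and 3.11%), and with the vector libraries alone 6 rose and 23 fell (18.5% and 22.1%). Leaving out any 1 vector library lowered the averaged count to 4 or 5 falls and 3 or 4 rises, and leaving out EphrinB2 osteogenic replicate 2 gave 21 falls and 6 rises. Of the 20 averaged calls 7 held without any 1 library, those of Gdf6, Tgfbr3, Fstl1, Chrdl1, Nog, Hey1 and Tbx2. Another 11, those of Bmp3, Acvr1, Acvrl1, Rgma, Smad7, Smurf2, Ski, Skil, Bambi, Crim1 and Bmper, were lost without any 1 vector library, with highest limma adjusted p-values of 0.0609 to 0.148. Those of Fst and Tll1 were lost without 3 of the 4 vector libraries. Calls of Bambi, Crim1, Ski, Skil, Smurf2 and Tll1 were also lost without EphrinB2 complete replicate 2, those of Rgma and Tll1 without EphrinB2 complete replicate 1, and that of Bambi without EphrinB2 osteogenic replicate 1. Between EphrinB2 and vector cells 0 of 40 passed in either medium. Without EphrinB2 osteogenic replicate 2, which leaves the replicate that stood apart alone in its group, some were called lower in osteogenic medium. Many other genes were then called too, in both directions.

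Other ligands were few, with 3 of 11 above the filter, of which 2 fell and 0 rose (9.44% and 10.3% of all genes). Gdf6, a BMP-type ligand of joints and skeleton, had the highest level of any ligand measured here, above Bmp4 and Bmp6 in every library. It stood at 67.4 and 80.3 FPKM in EphrinB2 osteogenic libraries, against 355 and 350 FPKM in EphrinB2 complete libraries. In vector cells Gdf6 stood at 75.9 and 74.2 FPKM in osteogenic libraries, against 359 and 335 FPKM in complete libraries. The averaged log2 difference was -2.22 (SE 0.12; limma, adjusted p = 0.000104), and with the EphrinB2 libraries alone its adjusted p was 0.0547. Bmp3, a ligand known to oppose bone formation, fell by 0.87 on the log2 scale (SE 0.18; limma, adjusted p = 0.0165). Bmp7 was listed at 0 in all 8 libraries, and Bmp5 and Bmp10 stayed under 0.06 FPKM.

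Among 7 measured receptors and co-receptors 2 rose and 2 fell, beside 10.3% and 9.44% of all genes. The co-receptor Tgfbr3, or betaglycan, stood at 14.3 and 23.0 FPKM in EphrinB2 osteogenic libraries and 5.94 and 6.88 FPKM in EphrinB2 complete libraries. In vector cells Tgfbr3 stood at 23.9 and 24.6 FPKM in osteogenic and 8.54 and 8.01 FPKM in complete libraries, a rise of 1.41 averaged over both cell kinds (SE 0.16; limma, adjusted p = 0.00159). Rgma, a membrane-anchored co-receptor, rose by 0.51 (limma, adjusted p = 0.0296). The type I receptors Acvrl1 and Acvr1 fell, by 0.74 (limma, adjusted p = 0.0158) and 0.67 (limma, adjusted p = 0.0124) on the log2 scale. Bmpr1b, a further type I BMP receptor, stayed under 0.1 FPKM.

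All 11 transducers and brakes were measured, and 1 rose and 4 fell, but 0 of 11 passed in limma without any 1 vector library. The falls were those of Smad7, the other inhibitory Smad (-0.78, SE 0.14; limma, adjusted p = 0.00994), the ubiquitin ligase Smurf2 (-0.78; limma, adjusted p = 0.0300), and the transcriptional corepressors Ski (-0.81; limma, adjusted p = 0.0318) and Skil (-0.68; limma, adjusted p = 0.0402). Bambi, a receptor-like protein without a kinase that was chosen after its values were seen, rose by 0.57 (limma, adjusted p = 0.0417). It passed the filter only through osteogenic libraries. Of all genes 10.3% rose and 9.44% fell in this averaged comparison. Smad7 stood at 19.3 and 20.2 FPKM in EphrinB2 osteogenic and 36.8 and 25.5 FPKM in EphrinB2 complete libraries, and at 19.3 and 20.1 FPKM in vector osteogenic and 39.9 and 38.5 FPKM in vector complete libraries. Its media did not overlap in either cell kind, where 23.6% (EphrinB2) and 38.8% (vector) of all genes were lower without overlap.

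Of 12 measured antagonists and binding proteins 2 rose and 5 fell, beside 10.3% and 9.44% of all genes. Fstl1, a secreted glycoprotein that binds Bmp4, stood at 150 and 196 FPKM in EphrinB2 osteogenic libraries, against 711 and 957 FPKM in EphrinB2 complete libraries. In vector cells Fstl1 stood at 207 and 199 FPKM in osteogenic libraries, against 650 and 698 FPKM in complete libraries, and the averaged difference was -1.99 (SE 0.16; limma, adjusted p = 0.000424). Noggin, Nog, a secreted trap for BMP ligands, was low throughout, with at most 0.183 FPKM in osteogenic and 0.894 to 1.41 FPKM in complete libraries, and fell by 1.00 (limma, adjusted p = 0.00330). The membrane protein Crim1 fell by 1.15 (limma, adjusted p = 0.0193). Chrdl1, chordin-like 1, stood at 2.03 and 3.54 FPKM in EphrinB2 osteogenic and 0.238 and 0.305 FPKM in EphrinB2 complete libraries. In vector cells Chrdl1 stood at 3.41 and 3.75 FPKM in osteogenic and 0.189 and 0.342 FPKM in complete libraries, and it rose by 1.70 (SE 0.15; limma, adjusted p = 0.000611). Tll1 (0.88), Fst (-0.80) and Bmper (-0.44), named after their values were seen, were the remaining calls of this list (limma, adjusted p = 0.0380, 0.00886 and 0.0209). Nog, Chrdl1 and Tll1 passed the filter only through the medium where they were higher.

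Other target genes had 7 of 14 members above the filter, of which 1 rose and 1 fell. These counts are near the shares of all genes, 10.3% and 9.44%. Hey1, a repressor that Notch signals also induce, stood at 0.984 and 1.22 FPKM in EphrinB2 osteogenic and 3.27 and 2.80 FPKM in EphrinB2 complete libraries, and at 0.617 and 0.775 FPKM in vector osteogenic and 2.76 and 2.85 FPKM in vector complete libraries. Its averaged difference was -1.05 (SE 0.10; limma, adjusted p = 0.000922). Hey1 passed the filter only through complete libraries. Tbx2, a T-box repressor of heart development, rose by 0.80 (SE 0.11; limma, adjusted p = 0.00303). The bone factors Sp7 and Dlx5 stayed under 0.02 and 0.14 FPKM.

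**Figure D4:**
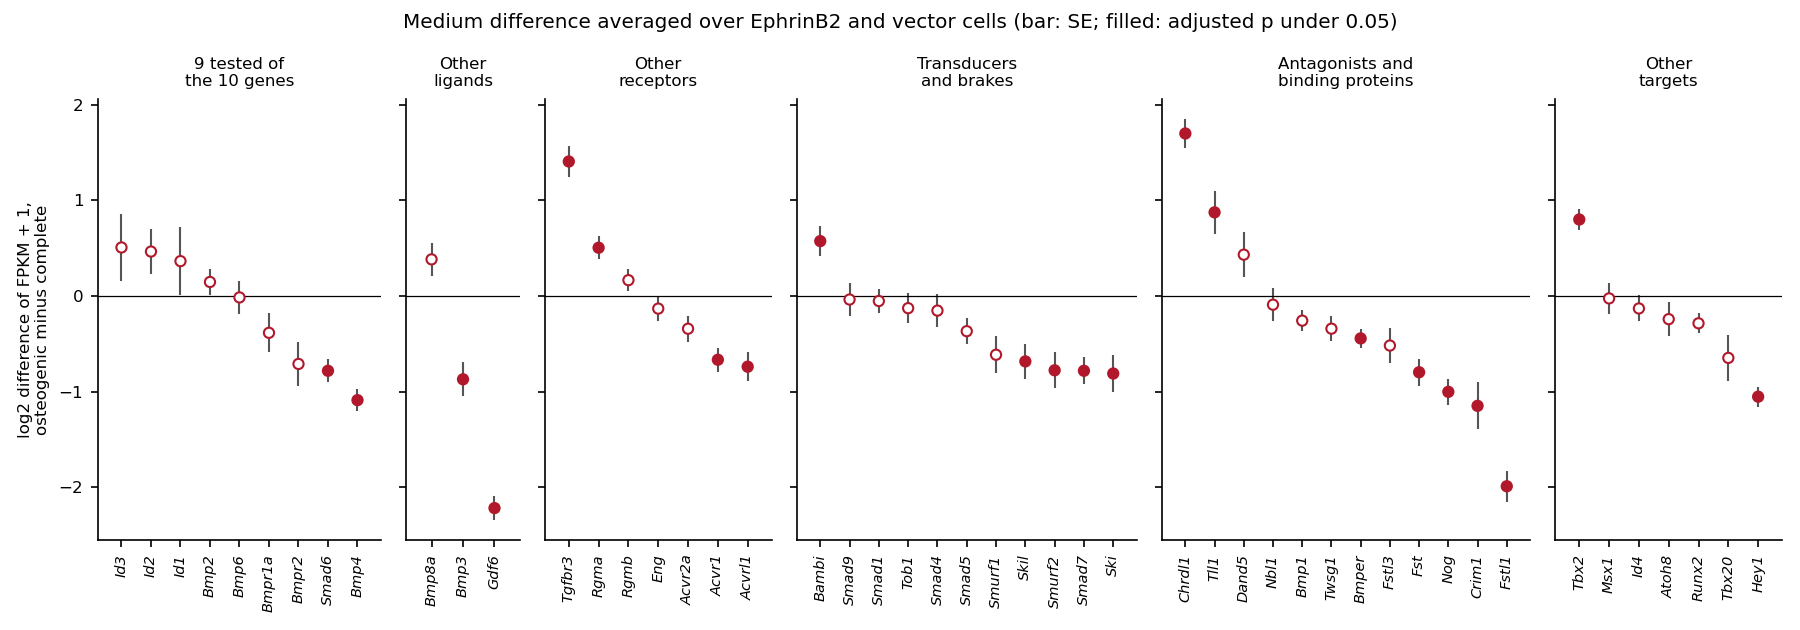
Log2 difference of FPKM + 1 between osteogenic and complete medium, averaged over EphrinB2 and vector cells (vertical axis, bars are the SE), for 9 BMP genes and the 40 other measured pathway genes by list, filled where the adjusted p was under 0.05. Falls outnumber rises, led by Gdf6 (-2.22) and Fstl1 (-1.99), with Chrdl1 (1.70) and Tgfbr3 (1.41) the largest rises. Chrdl1, Nog, Hey1, Bambi and Tll1 passed the filter only through the medium where they were higher. Of all genes 10.3% rose and 9.44% fell.

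Markers of other cells also differed between media, and their part in the results above was not tested. The calls below are averaged over both cell kinds, where 10.3% of all genes rose and 9.44% fell. Of 12 macrophage markers 11 rose, all except Ptprc, and 8 to 12 did with 1 library left out. Their summed level was 8335 and 4123 FPKM in EphrinB2 osteogenic, 1794 and 864 in EphrinB2 complete, 4636 and 4861 in vector osteogenic and 2134 and 1872 in vector complete libraries, most of it from Lyz2. Without Lyz2 it was 2274 and 1144 FPKM in EphrinB2 osteogenic, 466 and 314 in EphrinB2 complete, 1277 and 1384 in vector osteogenic and 540 and 481 in vector complete libraries. Fibroblast markers summed to 2293 and 2343 FPKM in EphrinB2 osteogenic, 4621 and 5363 in EphrinB2 complete, 2272 and 2315 in vector osteogenic and 4562 and 4400 in vector complete libraries. Of 9, the collagens Col1a1, Col1a2 and Col3a1 fell and Dcn, a matrix proteoglycan, rose, and these 4 calls held without any 1 library. Other marker lists were low or mixed. Of their calls, Msln, Tnnt2, Myh11 and Ifitm5 reached 1 FPKM only in osteogenic libraries, and Pecam1 and Cdh5 only in complete libraries. Lipe and Lrrn4 reached it in only 1 library of the medium where they were lower. These markers passed the filter only through the medium where they were higher. Endothelial markers had 3 of 10 measured, with Tek risen and Pecam1 and Cdh5 fallen (sums of 9.47 to 14.2 FPKM, with 5 markers under 1 FPKM in every library), and smooth muscle and pericyte markers 6 of 10, with Myh11 risen and Smtn fallen (477 to 1105 FPKM, mostly Acta2). Of 10 cardiomyocyte markers only Tnnt2 was measured and rose (sums of 0.824 to 15.5 FPKM), while Myh6 and Myh7 were at or near 0. Epicardial and mesothelial markers had 4 of 7 measured, Msln risen and Upk3b and Lrrn4 fallen (sums of 8.31 to 11.3 FPKM), and adipocyte markers 3 of 7, with Fabp4 and Lipe risen (2.85 to 64.5 FPKM) and Adipoq at no more than 0.141 FPKM. Of 10 osteoblast markers 5 were measured, of which Spp1 and Ifitm5 rose and Col1a1 fell (576 to 2179 FPKM), and Ibsp and Sp7 were at or near 0 in every library. The calls of 10 markers, Lyz2, Tyrobp, Cd14, Tek, Pecam1, Myh11, Smtn, Lrrn4, Spp1 and Ifitm5, were lost without any 1 vector library, and that of Upk3b was lost without 3 of the 4.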

How the data were processed

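Tools named in the submitters' processing notes are HISAT2 2.0.5, CASAVA, DESeq2 1.16.1 and featureCounts 1.5.0-p3, and the build is mm10. Annotation release, strand setting and counting parameters were not stated. The authors deposited FPKM per gene, and 0 columns belonged to other samples. Gene identifiers were matched to GENCODE M21 on GRCm38, the assembly of mm10, for symbols, coordinates and merged exon lengths; 54495 matched and 37 did not. Depth was recovered from the FPKM steps, where 98.1% to 98.3% of values under 50 reads were whole within 0.02 reads. Depth carries counting error only.

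A count model does not suit FPKM. Genes with at least 1 FPKM in at least 2 of 8 libraries (12994) were analysed as log2(FPKM + 1) in limma 3.58.1 (R 4.3.3). The model had a mean for each of 4 groups, a mean-variance trend, 4 residual and 2.72 prior degrees of freedom, and moderated two-sided tests. Fold changes are on that scale, which understates changes of low genes. P-values were adjusted by Benjamini-Hochberg over all genes, with a threshold of 0.05. The averaged medium difference is the mean of that in EphrinB2 and in vector cells. Labels number no replicates, so libraries were numbered in listed order and not paired. The fit was also run on simulated data with independent noise for each gene and no shift between partners by gene length. That run does not show how the fit behaves under the length-linked differences between EphrinB2 partners.

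The 10 genes, the pathway and marker lists and the alternatives were chosen with earlier results of these data known. Every one of the 10 genes is named. Of the other pathway genes, those past the threshold in at least 1 comparison are named, up to 4 per list by the largest averaged difference; others are marked. Alternatives were a pseudocount of 0.1, 2 other filters, quantile or median scaling, no trend, array weights, fewer libraries in the fit and each library left out.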

Additional observations from a re-analysis of the deposited data

How the results depend on the processing

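Of 900 comparisons of a gene's difference under an alternative with its reported value (54 differences), 828 kept direction and side of the threshold, 14 lost a call, 15 gained one and 43 reversed. A difference that reversed was counted only as reversed, whether or not it also crossed the threshold. The number of BMP genes called in EphrinB2 cells between media was 1 and became 0 with array weights, 0 with the EphrinB2 libraries alone and 4 without both libraries that stood apart, which also gave 5 in place of 2 for the average. Leaving out 1 library gave 0 to 5 calls in EphrinB2 cells, 0 to 2 in vector cells and 1 to 4 for the average. Over all genes, calls between media were 1533 in EphrinB2 cells (153 with EphrinB2 libraries alone, 335 with array weights, 3858 without both libraries, 635 to 5686 without 1 library), 977 in vector cells (5273 with vector libraries alone, 5521 with array weights, 5274 without both, 169 to 1749 without 1) and 2568 in the average (6265 without both, 1197 to 5205 without 1). Between EphrinB2 and vector cells they were 0 in osteogenic medium (0 to 2742 without 1; 14 with no filter) and 1 in complete medium (13 with no filter), and 0 for the interaction (22 with no filter). Calls of BMP genes between EphrinB2 and vector cells stayed at 0 of 9 under every alternative run.

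Without both libraries that stood apart the log2 difference between media in EphrinB2 cells was 0.31 for Bmp6, 0.018 for Bmpr1a, -0.33 for Id1 and -0.13 for Id3, and averaged over both cell kinds 0.20 for Bmp6, -0.25 for Id1 and -0.095 for Id3. Between EphrinB2 and vector cells it was then, in complete medium, -0.049 for Bmp6, -0.057 for Bmpr1a, -0.30 for Bmpr2, 0.0030 for Smad6, 0.32 for Id1, 0.20 for Id2 and 0.21 for Id3, and in osteogenic medium 0.17 for Bmp6 and 0.12 for Bmpr1a. The interaction became 0.22 for Bmp6, 0.18 for Bmpr1a, 0.23 for Bmpr2, -0.16 for Id1 and -0.076 for Id3. Quantile normalization gave 0.0023 for Id3 between media in vector cells and 0.016 for Bmp6 in the average, and a pseudocount of 0.1 gave -0.032 for the interaction of Bmp2; the cause was not tested.

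Leaving out 1 library reversed values with these ranges: between media -0.015 to 0.31 for Bmp2 in vector cells, -0.46 to 0.21 for Bmp6 in EphrinB2 cells and -0.18 to 0.15 for Bmp6 in the average. In complete medium EphrinB2 against vector ranged from -0.049 to 0.14 for Bmp6, -0.057 to 0.40 for Bmpr1a, -0.30 to 0.44 for Bmpr2, -0.15 to 0.0030 for Smad6, -1.05 to 0.32 for Id1, -0.79 to 0.20 for Id2 and -1.11 to 0.21 for Id3. In osteogenic medium it ranged from -0.50 to 0.17 for Bmp6 and -0.67 to 0.12 for Bmpr1a, and the interaction from -0.16 to 0.16 for Bmp2 and -0.55 to 0.12 for Bmp6. No paired analysis was possible because the labels give no replicate number shared between groups. With 2 libraries a group, a library left alone in its group is assumed to vary like the others. Depth limits Grem1 (0 to 11 reads) and Bmp2 (48 to 112 reads).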
